A study of Mus musculus with 15 samples.

Results

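Quadriceps muscle of adult mouse offspring was compared between 3 libraries whose mother had eaten a high-fat diet (group label MHE) and 3 whose father had (group label PHE), where the pregnant dam had run on a wheel in both cases. These 6 libraries were chosen by group label out of 15 in 5 groups, and all 13499 genes with a mean normalized count of at least 10 over the 15 libraries were tested. A normalized count is a gene's read number divided by a size factor for its library. No gene passed the test at a Benjamini-Hochberg adjusted p of 0.05, so the values below are descriptions of measured differences with their errors.

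All mice were C57BL/6. In the maternal arm, females were given a 60% high-fat diet for 6 weeks from the age of 8 weeks and were then mated with lean males aged 14 weeks. In the paternal arm, males had that diet for the same time from the same age, and lean females aged 14 weeks were their mates. Each pregnant dam then lived alone with a running wheel, open in the exercised groups and locked in the sedentary groups, so that the dam that ran had been fed the high-fat diet in the maternal arm and was a lean mate in the paternal arm. Offspring of every group had chow and no exercise after birth and were killed at 10 months of age. The labels describe the 2 arms as studies run in parallel, so the parent that had the diet, the study and the diet of the running dam cannot be told apart. They give neither the sex nor the litter of the offspring. The p-values rest on these samples only, and it is not known whether they cover the spread between litters. The first part of the sample titles (F3, F5 and F7 in the maternal group, F1, F2 and F6 in the paternal group) is not explained, is shared by no library of the other group and cannot be told apart from the arm.

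Skeletal muscle is built of slow fibres, which rely on mitochondria and carry the myosin Myh7, and fast fibres, which in mouse quadriceps carry mostly Myh4. Diet of either parent before conception, and activity of the mother in pregnancy, are known from rodent work to affect glucose handling and muscle metabolism of adult offspring. Candidates often studied in this setting are Ppargc1a, a coactivator that drives mitochondrial genes, the glucose transporter Slc2a4 and the DNA methyltransferases.

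The 6 libraries held between 18457663 and 25702946 reads in genes and between 19062 and 20080 genes with at least 1 read. Muscle genes dominated in each of them, with Myh4 at 1664932 to 2880306 normalized counts. Xist was read in each, at 1573 to 2668 normalized counts, and 3 of the 4 Y-linked genes listed had no read in any of the 6. Pairs of libraries differed by a median of 0.22 to 0.24 (log2) per gene within the maternal group, 0.17 to 0.22 within the paternal group and 0.17 to 0.25 between the groups, so the groups were no further apart than their own members. The libraries that stood furthest from the others were maternal replicate 3, with 274 genes at 2-fold or more above the median of the 6, and paternal replicate 1, with 252 genes at 2-fold or more below it. Values of gene lists without single libraries are given for a part of the lists and libraries. The medians of 26 of 40 lists changed sign when some library was left out.

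In the limma test on log2(normalized count + 1), 0 of 13499 genes passed (0% called), and the lowest adjusted p was 0.9998. At an unadjusted p of 0.05, 355 genes were below the threshold (2.63%), where 675 are the average for a test with no difference at all, with 235 higher (1.74%) and 120 lower (0.889%) in the maternal group. On the reads themselves, edgeR's quasi-likelihood test called 0 genes and limma voom 0, with 375 (2.78%) and 327 (2.42%) at an unadjusted p of 0.05. DESeq2 called 2 (0.0148%), Myh3 and Igfn1, with 243 (1.8%) at an unadjusted p of 0.05. All 3 values of one group lay above all 3 of the other for 1091 genes (8.08%), of which 559 (4.14%) were higher and 532 (3.94%) lower in the maternal group. An exact permutation test of 3 against 3 cannot go below p = 0.1, so that test alone could pass no gene at 0.05. The value 0.1 is also the average share of genes that separate fully, in either direction, where there is no difference at all.

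The data limit how large most differences can be. The median absolute difference was 0.11 (log2) beside a median standard error of 0.17, and 133 genes differed by more than 2-fold in their means, 88 higher and 45 lower. In limma each gene's error is drawn toward a trend over all genes. The SE values and intervals given here are therefore not the scatter of that gene's libraries alone. The 95% confidence interval lay within 2-fold either way for 11046 genes (81.8%) and within 1.5-fold for 7650 (56.7%). In simulated counts with the spread of these 6 libraries, 100 genes were changed by 2-fold and 100 by 4-fold. The changed genes were picked among those with a mean of at least 50 reads, so lower genes are not covered. Each gene was drawn independently of the others, whereas whole gene lists move together in single libraries here. The same test found 72 and 99 of them, with 12 false calls. With no gene changed in such counts, the share at an unadjusted p of 0.05 was 4.75%, and it was 2.63% in the 6 libraries. What share of real changes the test would find in these libraries was not tested. In the plot of all genes against their level, differences lie about 0 at every level and widen for genes with few reads.

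**Figure D1:**
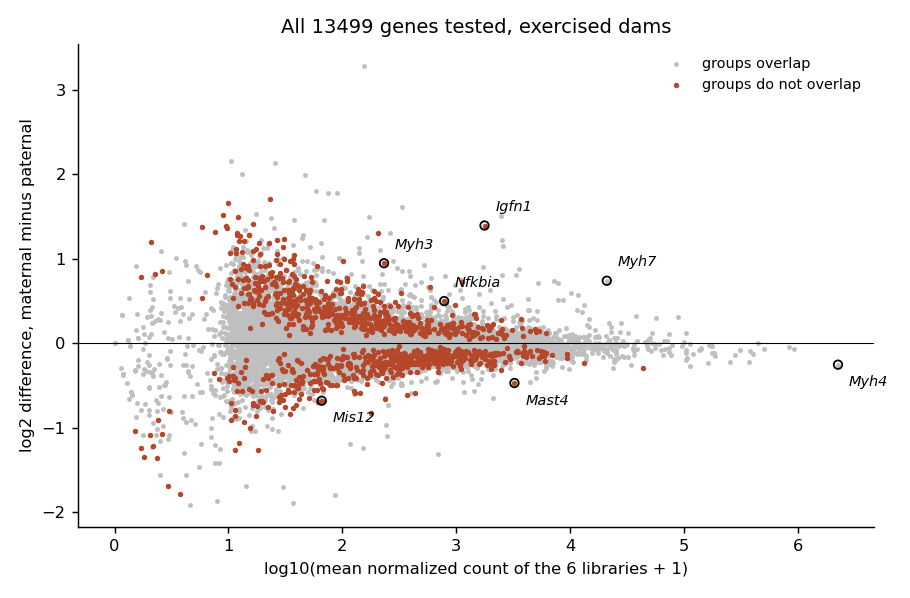
Difference between the maternal and the paternal group (log2, y axis) against the mean normalized count of the 6 libraries (log10, x axis) for the 13499 genes tested. Each point is a gene, the 1091 whose groups do not overlap are in colour, and 7 genes named in the text are circled; none passed the limma test.

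Myh3, the embryonic myosin heavy chain that is expressed in developing and regenerating fibres, had the smallest unadjusted p of the genes named by rule. Its normalized counts were 265, 352 and 297 in the maternal group and 146, 144 and 183 in the paternal group. Every maternal library lay above every paternal one. The means were 305 ± 44.2 and 158 ± 21.7 (SD, n = 3 each), a log2 difference of 0.95 ± 0.16 (SE) with a 95% interval of 0.58 to 1.31, and limma gave an adjusted p of 0.9998 (unadjusted 0.00029). DESeq2 gave the gene an adjusted p of 0.0185, which became 0.00609 without maternal replicate 1, 0.0061 without paternal replicate 3, 0.487 without paternal replicate 2, 0.234 without paternal replicate 1, 0.176 without maternal replicate 3 and 0.167 without maternal replicate 2. Myh3 lies in the cluster of fast and developmental myosins on chromosome 11 (GRCm38, chr11:67078300-67102291, plus strand), whose coding sequences are much alike, and the part that reads from its neighbours play in its count was not tested. The neonatal myosin Myh8, its neighbour and another marker of young fibres, chosen here after its values were seen, had 273, 290 and 648 against 304, 253 and 257 normalized counts, with overlapping groups. The embryonic light chain Myl4, chosen in the same way, had 338, 406 and 321 against 249, 193 and 371, also with overlap.

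Igfn1, an immunoglobulin and fibronectin repeat protein of the sarcomere, was the other gene that DESeq2 called. Its normalized counts were 1837, 3076 and 2662 in the maternal group and 543, 1114 and 1372 in the paternal group, without overlap. The log2 difference was 1.39 ± 0.33 (SE), with a 95% interval of 0.63 to 2.15 and a limma adjusted p of 0.9998. The DESeq2 adjusted p of 0.0428 became 0.027 without maternal replicate 1, 0.0061 without paternal replicate 3, 0.0552 without paternal replicate 1 and 0.9997 or more without maternal replicate 2, maternal replicate 3 or paternal replicate 2. The gene lies at chr1:135953578-136006342 on the minus strand.

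The 250 bases before the start of each of these genes are shown because these are the only genes that any of the tests called. They are from RefSeq (GRCm38.p6), printed 5′ to 3′ on the gene's strand, at chr11:67078050-67078299 (plus strand) for Myh3 and chr1:136006343-136006592 (minus strand) for Igfn1. Capitals mark E-boxes, CANNTG, the letters bound by MyoD and related muscle factors; the motif reads as CANNTG on both strands.
Myh3: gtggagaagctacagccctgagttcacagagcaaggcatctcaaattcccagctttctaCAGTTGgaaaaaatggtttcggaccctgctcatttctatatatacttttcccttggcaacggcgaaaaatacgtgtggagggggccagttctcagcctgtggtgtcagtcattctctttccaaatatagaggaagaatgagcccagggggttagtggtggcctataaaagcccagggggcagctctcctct
Igfn1: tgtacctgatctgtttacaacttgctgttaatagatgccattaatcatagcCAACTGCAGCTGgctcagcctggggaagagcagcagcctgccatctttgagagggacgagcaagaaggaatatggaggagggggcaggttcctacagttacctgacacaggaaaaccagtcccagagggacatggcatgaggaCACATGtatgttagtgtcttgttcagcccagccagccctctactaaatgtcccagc
The Myh3 window held 1 E-box, CAGTTG, whose first base lies 191 bases before the start. The Igfn1 window held 3, CAACTG at 199, CAGCTG at 193 and CACATG at 56 bases before the start, the first 2 directly side by side. Of 32851 promoter windows of this length, 66.2% held at least 1 E-box, 12.2% at least 3 and 13% the form CAGCTG. A match is a description of letters and not a measured site.

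Among genes with a mean of at least 50 in either group and no overlap, the other 8 with the smallest unadjusted p on the maternal side were Nfkbia, Vsig2, Adamts10, Hlx, Sema6a, Ccdc80, Gja1 and Mustn1. Their log2 differences ran from 0.34 ± 0.09 (SE) for Mustn1 to 0.61 ± 0.16 for Sema6a, and none passed. Nfkbia, the inhibitor that holds NF-kB in the cytoplasm, had 908, 916 and 916 normalized counts in the maternal group against 594, 749 and 606, a log2 difference of 0.50 ± 0.11. The maternal values of Nfkbia lay close together and the paternal ones were spread. Mustn1, a small nuclear protein of muscle and skeleton, had 1636, 1716 and 1563 against 1397, 1175 and 1304 normalized counts. Adamts10, a matrix protease of the fibrillin system, had 312, 345 and 357 against 232, 221 and 268. Gja1, the gap junction protein connexin 43, had 203, 244 and 285 against 157, 152 and 174.

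On the paternal side the 10 genes were Mast4, Mis12, Pigv, Ggh, Tnrc18, Ldb2, Arhgap12, Mettl16, Enpp4 and Lgalsl, with log2 differences from -0.24 ± 0.08 (SE) for Lgalsl to -0.69 ± 0.22 for Ldb2. Mast4, a kinase tied to microtubules, had 3084, 2427 and 2631 normalized counts in the maternal group against 4173, 3555 and 3545 (log2 difference -0.47 ± 0.12). Mis12, a kinetochore protein, had 52.9, 51 and 45.1 against 80.6, 78.9 and 80.7 (-0.68 ± 0.17). Pigv, a mannosyltransferase for the anchors of membrane proteins, had 229, 245 and 244 against 322, 322 and 305 (-0.40 ± 0.11). Mettl16, a methyltransferase acting on RNA, had 274, 294 and 264 against 356, 325 and 374 (-0.34 ± 0.11). The 20 genes were selected for the absence of overlap, so that property is not a finding.

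**Figure D2:**
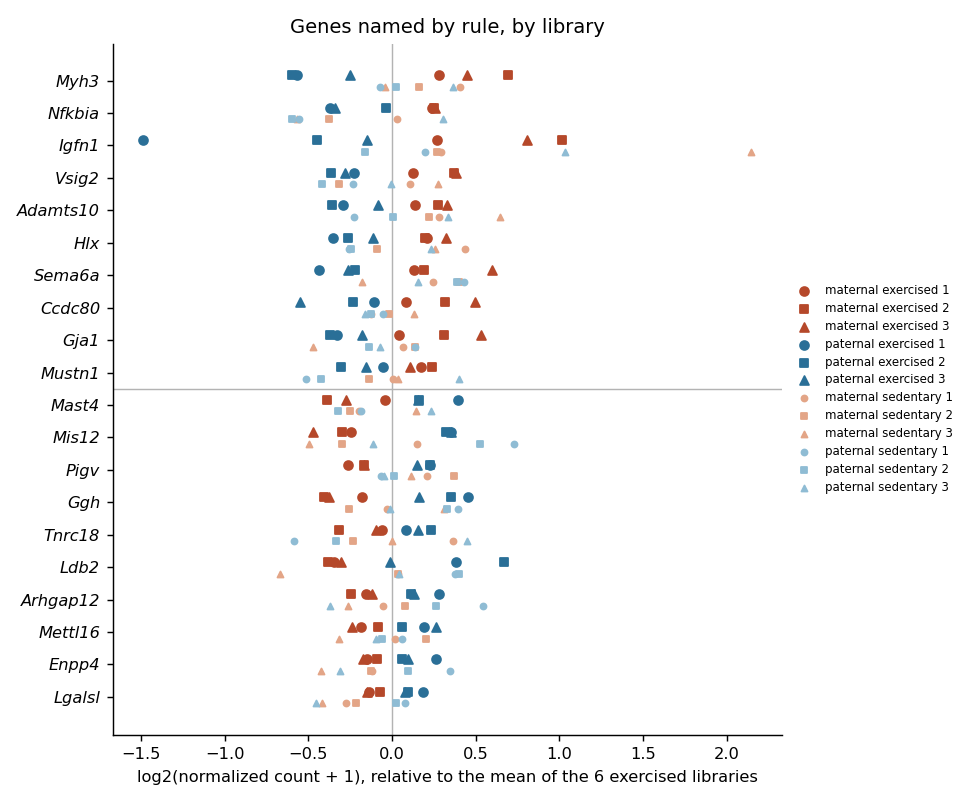
Values of the 20 genes named by rule in each library, as log2(normalized count + 1) relative to the mean of the 6 exercised libraries (x axis), 1 row per gene. Large symbols are exercised and small symbols sedentary libraries; the maternal and paternal exercised symbols separate in every row, as the rule requires, while nothing in the rule separates the sedentary symbols.

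Genes of muscle metabolism that are often studied in this setting overlapped between the groups. Ppargc1a had 729, 396 and 323 normalized counts in the maternal group and 516, 697 and 372 in the paternal group, a log2 difference of -0.17 ± 0.32 (SE) with a 95% interval of -0.90 to 0.56. Slc2a4 had 10616, 14390 and 16051 against 13376, 13611 and 12956 (0.02 ± 0.15). Cs, citrate synthase of the citric acid cycle, had 19135, 18755 and 17818 against 18807, 20500 and 18900 (-0.06 ± 0.10). The interval of Cs, -0.29 to 0.16, was narrower than that of most genes, while that of Ppargc1a was wide. Pdk4, the kinase that shuts off glucose oxidation, had 97595, 75395 and 129235 against 78934, 115642 and 102407 (0.01 ± 0.24). Ucp3, a mitochondrial carrier of muscle that follows fatty acid supply, had 7658, 12031 and 10751 against 11824, 8538 and 8127 (0.09 ± 0.20). Dnmt3b, a de novo DNA methyltransferase, had 38.7, 29.1 and 18 against 11.4, 18.8 and 28.9 (0.55 ± 0.41). For all 6 the groups overlapped, and the sign for Ppargc1a, Slc2a4, Pdk4 and Ucp3 depends on single libraries.

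Gene lists were read by counts and medians beside those of all genes tested, whose median log2 difference was -0.01 and of which 48.6% had a higher and 51.4% a lower maternal mean. No member of any list passed. Of all genes, 4.14% lay above and 3.94% below the paternal group without overlap. Slow-fibre genes had a higher maternal mean in 17 of 17 members, with a median of 0.51, and none of them without overlap. Myh7 had 30503, 26484 and 14133 normalized counts in the maternal group against 3842, 27089 and 23600, a log2 difference of 0.74 ± 0.68 (SE). Paternal replicate 1 alone is low: summed over the list it held 62688 normalized counts, against 149350 and 174009 in the other paternal libraries and 120198 to 197683 in the maternal ones. Without it the list's median was -0.02 (0.33 to 0.86 without any other library), 6 of 17 means were higher, and Myh7 differed by -0.17. In bulk tissue, fewer fibres of a type and less RNA per fibre cannot be told apart. Myh7b had 287, 313 and 180 against 30.6, 172 and 305, and Sln, the small inhibitor of the calcium pump, had 40.7, 61.9 and 82.2 against 11.4, 28.3 and 40.8. Casq2, the calcium store protein of slow fibres, had 802, 805 and 452 against 328, 547 and 637, and the Z-disc protein Csrp3 had 1483, 1175 and 1356 against 772, 1273 and 1040, with overlap in each.

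Fast-fibre genes had a lower maternal mean in 13 of 18, with a median of -0.07. The sign turned without maternal replicate 1 (median 0.05, 13 of 18 higher) and without paternal replicate 1 (0.01, 10 of 18 higher). Myh4 had 1664932, 2264180 and 2210024 normalized counts in the maternal group against 2880306, 2238490 and 2194269, a log2 difference of -0.25 ± 0.48 (SE). Here too paternal replicate 1 was the extreme library, the highest for Myh4, and maternal replicate 1 was the lowest, while it was the highest for Myh7. Glycolysis and glycogen genes had a lower maternal mean in 21 of 27 (median -0.09). Genes of fatty acid uptake and oxidation had a higher one in 31 of 32 (median 0.09). Without paternal replicate 1 the medians were -0.01 and -0.02, and without maternal replicate 1 they were 0.01 (15 of 27 higher) and -0.00 (15 of 32 higher), so both differences rest on these 2 libraries. In fatty acid oxidation no member was without overlap; Angptl4, the secreted inhibitor of lipoprotein lipase, had 533, 617 and 1164 against 319, 426 and 566 (0.77 ± 0.31), and 0.43 without maternal replicate 3.

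Respiratory chain genes sat at the level of all genes. Complex I subunits were 19 higher and 18 lower (median 0.00), and subunits of complexes II to V were 21 and 21 (median -0.00). Citric acid cycle genes had a lower maternal mean in 14 of 16 (median -0.06), 2 of them below the paternal group without overlap (3.94% among all genes). These were Sucla2, a subunit of succinyl-CoA ligase, at 4666, 4401 and 4148 normalized counts against 4751, 4872 and 5104 (-0.16 ± 0.08), and Fh1, fumarate hydratase, at -0.09 ± 0.08. The 7 tested genes of the mitochondrial genome all had a lower maternal mean (median -0.14), and leaving out a library moved the median from -0.31 without maternal replicate 1 to -0.01 without maternal replicate 2. Genes of the PGC-1 coactivators, partner receptors and related regulators were 9 higher and 14 lower (median -0.08). The sign was opposite without maternal replicate 3 (0.03, 12 of 23 higher). Insulin and AMPK signalling genes were 17 higher and 15 lower (median 0.00, and -0.05 to 0.06 when each library was left out). In that list Akt1, the kinase below the insulin receptor, had 1683, 1473 and 1746 normalized counts against 1157, 1439 and 1389, without overlap (0.30 ± 0.11). Prkaa2, the catalytic AMPK subunit of muscle, had 6546, 5124 and 4927 against 7235, 7276 and 5595 (-0.28 ± 0.15), and Pik3r1, the regulatory subunit of the PI3 kinase, 784, 742 and 1364 against 572, 790 and 700 (0.44 ± 0.23).

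**Figure D3:**
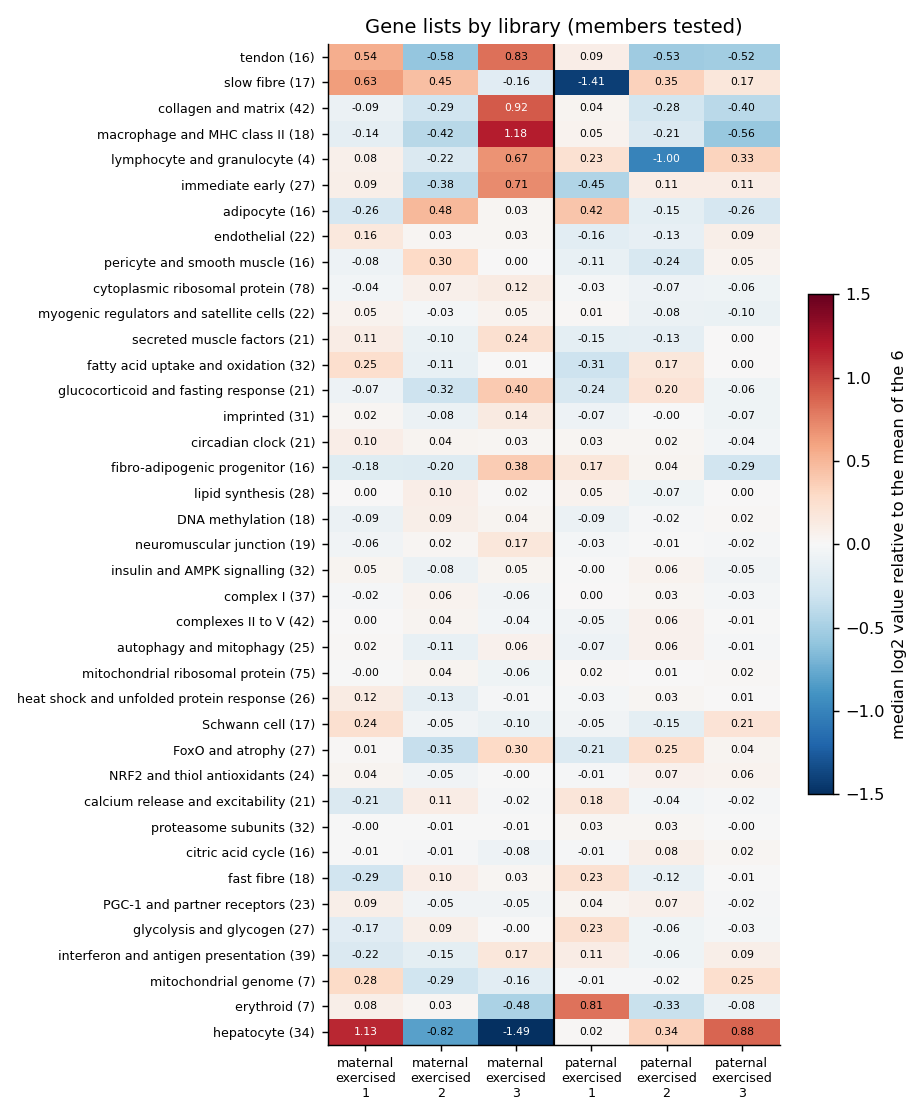
Median value of each gene list in each of the 6 libraries, as log2 relative to the mean of the 6 (colour and printed number; number of members tested in brackets), ordered by the median difference between the groups. Slow-fibre genes are at -1.41 in paternal replicate 1 and macrophage and MHC class II genes at 1.18 in maternal replicate 3, while hepatocyte genes, read at low levels, run from -1.49 to 1.13 within the maternal group.

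Genes of connective tissue were high in 1 maternal library. Collagen and matrix genes had a higher maternal mean in 37 of 42 members (median 0.46), 1 of them without overlap, and the median was 0.02 with 22 of 42 higher when maternal replicate 3 was left out (0.30 to 0.72 without any other library). Summed over the list, that library held 104454 normalized counts, and the other 5 held 39570 to 48771. Col1a1, the main chain of fibrillar collagen, chosen after its values were seen, had 1120, 585 and 11030 normalized counts in the maternal group against 978, 522 and 611, so 1 library carries the difference of 1.51 ± 0.92 (SE, log2), which was 0.26 without it. Bgn, the proteoglycan biglycan, was the member without overlap, at 950, 970 and 2466 against 883, 728 and 775 (0.73 ± 0.33, and 0.28 without maternal replicate 3). Col16a1 had 122, 97.1 and 407 against 102, 76.6 and 80.7.

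Tendon genes had a higher maternal mean in 16 of 16 (median 0.59), with a median of 0.43 without maternal replicate 3, 0.37 without maternal replicate 1 and 1.09 without maternal replicate 2. Maternal replicates 1 and 3 were high: the summed list was 10898, 5109 and 10836 normalized counts in the maternal group against 7772, 4205 and 4282. Thbs4, a matrix protein of tendon and muscle attachment that the matrix list also holds, had 3380, 1541 and 4862 against 2361, 1291 and 1548 (0.81 ± 0.39). Col11a1, a minor fibril collagen, had 64.1, 30.4 and 228 against 43.1, 21.2 and 22.1, and Tnmd, tenomodulin, had 52.9, 30.4 and 93.5 against 37.5, 16.5 and 30.6. Cilp, a cartilage and matrix protein, had 1196, 1370 and 1216 against 1447, 698 and 533. The groups overlap in these 4. The part that tendon or sheath tissue in the piece of muscle plays in these values was not tested.

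Macrophage and MHC class II genes, like the matrix genes, were highest in maternal replicate 3. Their maternal mean was higher in 16 of 18 (median 0.34), and in 6 of 18 (median -0.13) without that library (0.22 to 0.66 without any other). It held 3452 normalized counts over the list, against 1060 to 1986 in the other 5. The lymphocyte and granulocyte list, with 4 of 19 members tested, summed highest in paternal replicate 3 (932 normalized counts, against 816 in maternal replicate 3). That sum includes members not tested. By the median of the 4 tested members, maternal replicate 3 was the highest (0.67, log2 relative to the mean of the 6), against 0.33 in paternal replicate 3. Ctss, a lysosomal protease of antigen presenting cells, had 19.3, 15.8 and 74.4 normalized counts against 28.4, 7.07 and 10.2. Csf1r, the receptor macrophages need to live, had 59, 77.7 and 163 against 79.5, 67.1 and 45. Lgals3, a lectin of active macrophages, was the member without overlap, at 103, 101 and 140 against 95.3, 75.4 and 100. Immediate early genes, induced within minutes of stress or contraction, had a higher maternal mean in 21 of 27 (median 0.22, from -0.04 without maternal replicate 3 to 0.52 without maternal replicate 2). Fos, chosen after its values were seen, had 71.2, 60.7 and 1047 against 77.2, 108 and 145 (0.63 ± 0.95, and -0.69 without maternal replicate 3). Ccn1, a matrix signalling protein in the same list, had 1479, 2022 and 2138 against 1048, 1161 and 1566 (0.58 ± 0.18) and was less tied to that library, with 0.48 without it.

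Interferon and antigen presentation genes had a lower maternal mean in 26 of 39 (median -0.10). The median was -0.26 without maternal replicate 3 and -0.00 without maternal replicate 1, where 19 of 39 were higher. Irgm2, an interferon-induced GTPase, had 313, 250 and 299 normalized counts against 607, 337 and 414, the only member of the list without overlap (-0.62 ± 0.21). Irgm1 had 288, 242 and 332 against 362, 312 and 350 (-0.26 ± 0.14), and Iigp1, of the same family, 77.4, 75.3 and 139 against 201, 95.4 and 127 (-0.53 ± 0.32).

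Cytoplasmic ribosomal protein genes showed the most members without overlap of any list. The maternal mean was higher in 75 of 78, the median difference was 0.12, and 17 of 78 lay above the paternal group without overlap, where 4.14% of all genes did, and 1, Rpl5, lay below it. Rpl41 had 2261, 2280 and 2308 normalized counts in the maternal group against 1977, 1913 and 1941, a log2 difference of 0.23 ± 0.07 (SE). Rpl27 had 982, 1016 and 1069 against 865, 869 and 859 (0.24 ± 0.08). The differences are small and the list's median by library overlaps, being -0.04, 0.07 and 0.12 in the maternal group and -0.03, -0.07 and -0.06 in the paternal group. The median stayed between 0.08 and 0.15 when each library was left out in turn. The members are not independent of each other, and the part that reads shared with processed copies in the genome play in their counts was not tested. Subunits of the mitochondrial ribosome did not follow: 35 were higher and 40 lower (median -0.00), with 8 of 75 below the paternal group without overlap (3.94% among all genes), among them Mrpl35 at 407, 423 and 415 against 467, 469 and 516 (-0.22 ± 0.10). Proteasome subunits had a lower maternal mean in 22 of 32 (median -0.04). Psma3, Psmd6, Psmc2, Psmd1 and Psma2 lay below the paternal group without overlap (5 of 32, and 3.94% among all genes). Psma7 lay above it (1 of 32, and 4.14% among all genes). Psmd1, Psma2 and Psma7 were named after their values were seen. Psma3 had 868, 823 and 747 normalized counts against 924, 921 and 936 (-0.19 ± 0.09), and Psmd6 had 1884, 1892 and 1844 against 2108, 1983 and 2042 (-0.13 ± 0.08).

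**Figure D4:**
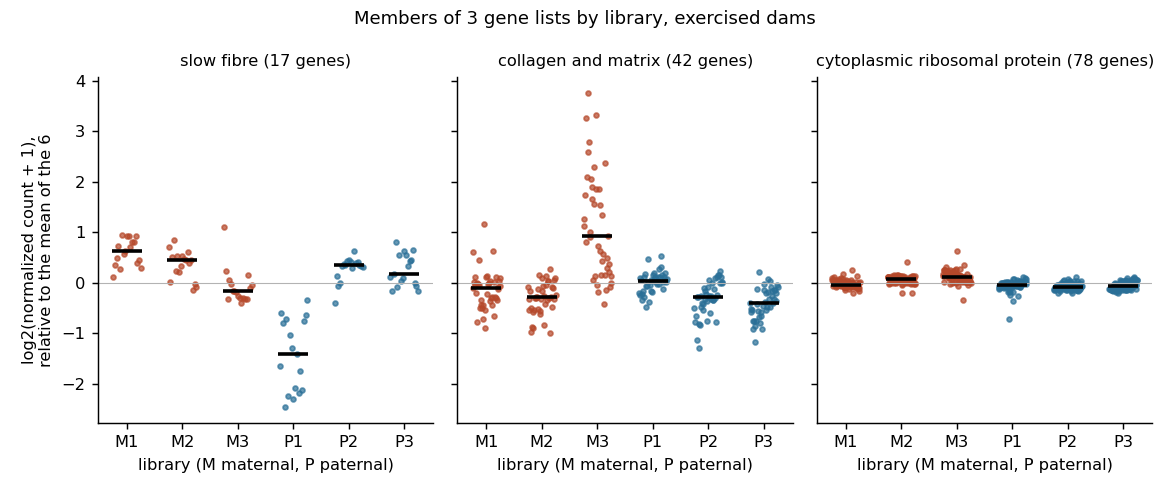
Each point is 1 gene in 1 library, as log2(normalized count + 1) relative to the gene's mean over the 6 libraries (y axis), for slow-fibre, collagen and matrix, and cytoplasmic ribosomal protein genes; M1 to M3 are the maternal and P1 to P3 the paternal libraries, and the bar is the median. Slow-fibre genes are lowest in P1 (median -1.41), matrix genes are highest in M3 (0.92), and ribosomal protein genes differ by little in any library.

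Satellite cell and myogenic genes had a higher maternal mean in 16 of 22 (median 0.11, from 0.07 to 0.15 when each library was left out). Hey1, a Notch target kept on in quiescent satellite cells, had 81.4, 80.1 and 116 normalized counts against 57.9, 68.3 and 72.2, without overlap (0.46 ± 0.21). Myf6, the myogenic factor of mature fibres, went the other way without overlap, with 1701, 1576 and 1753 against 2283, 1895 and 1844 (-0.25 ± 0.10). Of the secreted factors, 15 of 21 had a higher maternal mean (median 0.10). Without maternal replicate 3 it was 10 of 21 (median -0.01), and without maternal replicate 2 it was 17 of 21 (median 0.24). Fst, follistatin, which binds myostatin and activins, had 69.2, 58.3 and 58.6 against 38.6, 43.6 and 36.5, without overlap (0.64 ± 0.19), and the angiogenic factor Vegfa had 3656, 3917 and 2767 against 2300, 2791 and 3259, with overlap. Endothelial genes were higher in 18 of 22 (median 0.15, and 0.08 to 0.19 when each library was left out), among them Eng, a TGF-beta co-receptor of vessels, at 1675, 1551 and 1573 against 1219, 1183 and 1397 (0.34 ± 0.09). Robo4, the endothelial guidance receptor, had 724, 767 and 843 against 591, 706 and 708. Eng and Robo4 were the 2 of 22 above the paternal group without overlap, where 4.14% of all genes were.

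In the lists tied to parental effects, 1 of 18 DNA methylation genes was without overlap, and 1 of 31 imprinted genes in each direction. Over all genes the share without overlap was 8.08%. DNA methylation genes were 11 higher and 7 lower (median 0.03). Tdg, a glycosylase that acts in active demethylation, was the member without overlap, at 147, 136 and 132 normalized counts against 119, 118 and 123 (0.20 ± 0.13), and was chosen after its values were seen. Imprinted genes had a higher maternal mean in 22 of 31 (median 0.08, from 0.03 to 0.15 when each library was left out), where 48.6% of all genes did, with Airn above and Mcts2, chosen after its values were seen, below the paternal group without overlap. Meg3, a long RNA expressed from the maternal copy, had 258, 397 and 421 normalized counts in the maternal group against 116, 153 and 319 (0.97 ± 0.36), and its neighbour Rian, from the same domain, had 89.6, 136 and 106 against 61.3, 74.2 and 96.8 (0.51 ± 0.23). H19, also maternally expressed, had 15069, 11632 and 19159 against 9428, 13606 and 10208 (0.45 ± 0.20), with overlap in all 3 genes. Airn, the paternally expressed RNA antisense to Igf2r, had 116, 106 and 93.5 against 84, 81.3 and 90, a log2 difference of 0.30 ± 0.16. Airn runs through Igf2r on the other strand, and no source used here says whether the counting used strand, so the part of its partner's reads in this value was not tested. Clock genes were 12 higher and 9 lower (median 0.04), FoxO and atrophy genes 12 and 15 (median -0.03), and autophagy genes 11 and 14 (median -0.00). Each of these medians changed sign with a library left out, with ranges of -0.03 to 0.12, -0.18 to 0.15 and -0.06 to 0.09.

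Markers of other cells in the tissue and of stress were read in the same way. Pericyte and smooth muscle genes had a higher maternal mean in 11 of 16 (median 0.13, from 0.01 without maternal replicate 2 to 0.25 without maternal replicate 1). They included Cspg4, the pericyte proteoglycan NG2, at 252, 291 and 282 normalized counts against 207, 206 and 241. Tagln, an actin binding protein of smooth muscle, had 32.6, 55.9 and 33.8 against 21.6, 18.8 and 32.3. These were the 2 of 16 above the paternal group without overlap, where 4.14% of all genes were. Abcc9, a subunit of the potassium channel of pericytes and muscle, chosen after its values were seen, lay below the paternal group without overlap (-0.14 ± 0.09). Adipocyte genes were higher in 11 of 16 (median 0.17, from -0.02 without maternal replicate 2 to 0.38 without maternal replicate 1). Schwann cell genes were higher in 8 of 17 (median -0.02, range -0.08 to 0.13 with each library left out). Genes of the neuromuscular junction were higher in 11 of 19 (median 0.02, range -0.02 to 0.08). Markers of fibro-adipogenic progenitors were higher in 10 of 16 (median 0.04), but in 2 of 16 (median -0.12) without maternal replicate 3 and in 6 of 16 (median -0.06) without paternal replicate 3. At the junction, Chrna1, the alpha subunit of the acetylcholine receptor, had 503, 442 and 536 against 386, 479 and 378 (0.26 ± 0.13), with overlap. Erythroid genes had a lower maternal mean in 7 of 7 (median -0.29, from -0.54 without paternal replicate 2 to 0.06 without paternal replicate 1). Heat shock and unfolded protein genes were 12 higher and 14 lower (median -0.01, range -0.06 to 0.05 with each library left out). Their members differed in direction. The co-chaperone Dnajb1 had 137, 158 and 190 against 120, 90.7 and 108, without overlap (0.60 ± 0.18). The chaperone Hsph1 had 1055, 1090 and 1190 against 1616, 1145 and 1455, with overlap (-0.32 ± 0.13). Antioxidant genes under NRF2 had a lower maternal mean in 18 of 24 (median -0.04). Glucocorticoid and fasting genes had a higher one in 15 of 21 (median 0.08). That median was -0.13 without maternal replicate 3, -0.06 without paternal replicate 1 and 0.24 without paternal replicate 2. Lipid synthesis genes had a higher mean in 17 of 28 (median 0.03, and -0.01 without paternal replicate 2).

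The sedentary groups gave the same comparison between parents (labels MHS and PHS, 3 libraries each) with locked wheels. They share no library with the exercised ones, but they share title codes. All 3 maternal sedentary titles begin with F7, as does that of maternal exercised replicate 3. The paternal sedentary titles begin with F2, F2 and F4, and that of paternal exercised replicate 2 with F2. The codes are not explained, and their part in any likeness between the comparisons was not tested. In the sedentary comparison too 0 genes passed, and 292 had an unadjusted p below 0.05 in limma (2.16%). No overlap was seen for 969 (7.18%), 539 higher (3.99%) and 430 lower (3.19%) in the maternal group. The test of the difference between the exercised and the sedentary comparison found 0 of 13499 genes with limma and 0 with edgeR, with 274 (2.03%) at an unadjusted p of 0.05 in limma. Myh3 had 289, 243 and 212 normalized counts in the maternal sedentary group and 207, 221 and 281 in the paternal sedentary group, so the groups overlap. Its difference was 0.87 ± 0.24 (SE, log2) larger with exercised dams (adjusted p = 0.996 in limma, unadjusted 0.0033). Igfn1 had 1864, 1833 and 6748 against 1749, 1364 and 3123, and the difference between the comparisons was 0.85 ± 0.68. Fst was reversed, at 46.6, 36.9 and 29.2 in the maternal sedentary group against 60.6, 65.4 and 47.3, without overlap in the opposite direction, and the comparisons differed by 1.25 ± 0.31 (limma adjusted p = 0.996, unadjusted 0.00158). Pigv was also reversed, at 319, 356 and 298 in the maternal sedentary group against 263, 277 and 266, without overlap, and the comparisons differed by -0.67 ± 0.15 (limma adjusted p = 0.996, unadjusted 0.000872). Mis12 pointed the same way in both, with 69.9, 51 and 44.3 against 105, 91.3 and 58.1, though with overlap.

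Across the 13499 genes, the exercised and the sedentary difference had Pearson's r = -0.06 and Spearman's rho = 0.16, a description over genes, which are not independent replicates. Of the 559 genes above the paternal group without overlap in the exercised comparison, 378 (67.6%) also had a higher maternal mean in the sedentary one, where 51.7% of all genes did. Of the 532 below it, 362 (68.0%) also had a lower one, where 48.3% of all genes did. Without overlap in both comparisons and in the same direction were 34 genes higher (6.08% of the exercised and 6.31% of the sedentary list) and 24 lower (4.51% and 5.58%), and 32 genes were without overlap in opposite directions. Slow-fibre genes had a median of 0.02, matrix genes 0.02, tendon genes -0.02 and ribosomal protein genes 0.09 in the sedentary comparison. Macrophage and MHC class II genes had 0.41 and genes of the mitochondrial genome -0.51, the same signs as with exercised dams. The sign was opposite for interferon and antigen presentation genes (0.40), erythroid genes (0.72), satellite cell and myogenic genes (-0.14) and imprinted genes (-0.12). Liver genes touch the sedentary side: Alb, serum albumin, had 61.5, 39506 and 4225 normalized counts in the maternal sedentary group and 2074, 36.4 and 12.8 in the paternal one, but 6.76 to 260 in the 6 exercised libraries. The hepatocyte list summed to 417 to 983 normalized counts in the maternal exercised and 674 to 805 in the paternal exercised group. Of its 34 tested members 27 had a lower maternal mean in the exercised comparison, with a median of -0.82. That median ran from -1.65 without maternal replicate 1 to -0.27 without maternal replicate 3 and was -0.22 with a pseudocount of 10. The sedentary median was 3.86. The filter was a mean of at least 10 over all 15 libraries, so members could pass it through sedentary libraries in which they were high. Both medians are thus over members that the sedentary values helped to select. The part of these genes in the comparison across genes was not tested.

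**Figure D5:**
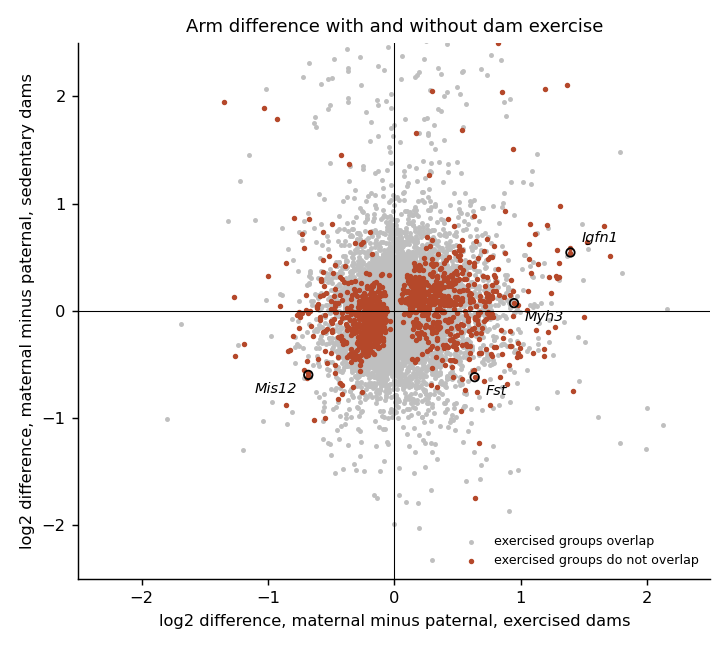
Difference between maternal and paternal high-fat groups with sedentary dams (log2, y axis) against that with exercised dams (log2, x axis), 1 point per gene. Genes whose exercised groups do not overlap are in colour, 143 genes lie outside the axes of 2.5 either way, and Myh3 and Fst stand to the right with sedentary differences of 0.07 and -0.62.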

How the data were processed

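The deposited table was made by the authors with STAR 2.5.2b, featureCounts 1.5.2, DESeq2 1.11.8 and build mm10 among the tools, per the submitters' processing notes; reads were 100 bp and single-end, from a stranded kit that removes ribosomal RNA, per the labels' protocols. It holds a signal per gene and library that the authors made by dividing counts by a size factor, deduced from the values: 100% were whole multiples of the smallest (tolerance 0.001 of a read), so reads were recovered. Of 50686 genes, 50462 (99.6%) matched GENCODE M21, the source of coordinates.

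Here limma 3.58.1 (R 4.3.3; lmFit, eBayes with trend) was fitted to log2(value + 1), a pseudocount of 1, of the 6 exercised libraries for 13499 genes; 37187 with a mean below 10 were not tested. Genes passed at a Benjamini-Hochberg adjusted p below 0.05; folds of low genes are understated on this scale. The difference between comparisons was fitted on 12 libraries, without controls. Alternatives on recovered reads were edgeR 4.0.16, DESeq2 1.42.0 and voom. Scripts were tested on simulated data. No library was a copy of another in its group (chi-square of read counts over its degrees of freedom, 18.0 to 44.2).

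Genes were named by rule: 10 in each direction with a mean of at least 50, no overlap and the smallest p (1 model without a symbol was skipped in each direction), 8 fixed genes and up to 4 per list by p. Comparison, lists and rule were chosen with earlier results of these data known.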

Additional observations from a re-analysis of the deposited data

How the results depend on the processing

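With limma, 0 genes passed at a pseudocount of 0.5 or 10, with a mean of at least 50, TMM scaling, array weights, 12 or 15 libraries in the fit, and with each library left out, and 0 passed with voom or edgeR. Without a filter on low values limma called 29 of 27721 genes (16 higher, 13 lower), whose means over the 6 libraries were at most 0.56, and DESeq2 called 2. With each library left out, DESeq2 called 8, 5 and 2 genes (without maternal replicates 1, 2 and 3) and 3, 0 and 6 (without paternal replicates 1, 2 and 3) (this setting was added after the data had been seen). These were largely other genes: Myh3 and Igfn1 were called only without maternal replicate 1 or paternal replicate 3. The 2 called without maternal replicate 3 were Gm26917 and Mir6236. The number of genes at an unadjusted p of 0.05 was 355, and 234 with a mean of at least 50, 949 without a filter, 234 with all 15 libraries in the fit and 205 to 791 with each library left out (205 without paternal replicate 1, 791 without maternal replicate 1). For the difference between exercised and sedentary comparisons it was 274, and 177 to 1178 with each library left out (685 without maternal sedentary replicate 1, 180 without maternal sedentary replicate 3, 178 without paternal sedentary replicate 2, 1178 without paternal sedentary replicate 3). The cause was not tested. Of 98 genes examined, none changed sign in 1071 values under the 11 other settings. Among these, the filters and the fits on 12 or 15 libraries leave each log2 difference as it was by construction, so that part was fixed in advance. Leaving out a library changed the sign of 6: Ppargc1a (-0.52 to 0.070), Slc2a4 (-0.11 to 0.19), Pdk4 (-0.19 to 0.20), Myh7 (-0.17 to 1.24), Ucp3 (-0.045 to 0.28) and Fos (-0.69 to 1.35). The medians of 26 of 40 gene lists changed sign when some library was left out. No paired analysis was possible because the labels number no replicates and the numbers used here, from accession order, tie no libraries together. With 3 libraries per group, the median 95% interval, unadjusted, reached 0.39 (log2) either way.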
